A study of Mus musculus with 19 samples.

Results

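The doublecortin-like kinase genes Dclk1, Dclk2 and Dclk3 were followed across sorted nasal epithelial cells of the mouse, with Trpm5 and Pou2f3, both known from tuft cells, set beside Dclk1. The members were taken by symbol, and all 3 were found among the 26221 rows of the deposited normalized table and among the 27179 rows of the deposited table of raw counts. Bulk RNA sequencing gave 19 libraries in 3 groups, all from naive mice of 1 B6.Cg transgenic line, ChAT(BAC)-eGFP, in which a bacterial artificial chromosome (RP23-268L19-EGFP) drives enhanced green fluorescent protein (eGFP) from the regulatory region of Chat, the gene of choline acetyltransferase. The groups were eGFP-positive epithelial cells, gated as CD45-negative and EpCAM-positive, of high forward and side scatter (FSChi, 5 libraries), cells with the same surface and reporter profile but low scatter (FSClow, 9 libraries), and CD45-negative, EpCAM-positive cells without eGFP (EpCAM, 5 libraries). The labels give no age or sex and do not tell which libraries share an animal, so p-values reflect the variation among libraries, part of which may be technical.

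Doublecortin-like kinases join 2 kinds of protein module. Doublecortin domains at the amino terminus bind and stabilise microtubules, and a serine/threonine kinase domain related to the calcium/calmodulin-dependent kinases lies at the carboxyl terminus. Dclk1 is known both from growing neurons and as a widely used marker of tuft cells, the chemosensory epithelial cells of the mouse intestine and airway. Dclk2 is its closest relative and is known mainly from neurons, and Dclk3 is a more divergent member studied in the brain. In the olfactory epithelium, new sensory neurons are made throughout life and express Dcx, the gene of doublecortin itself.

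Library totals ran from 1348428 to 7477695 counted reads. The eGFP sort was visible in Chat, which measured 183 to 433 CPM (reads relative to the scaled library total) in FSChi libraries and 448 to 587 CPM in FSClow libraries, against 0.151 to 3.09 CPM in EpCAM libraries. The summed level of 24 tuft markers was 12177 to 20320 CPM in FSChi libraries and 16106 to 20559 CPM in FSClow libraries, against 363 to 576 CPM in EpCAM libraries. FSChi libraries also held markers of other epithelial cells in unequal amounts. Mature olfactory neuron markers summed to 4660, 246, 1676, 3576 and 2263 CPM in FSChi replicates 1 to 5, to between 79.9 and 296 CPM in FSClow libraries and to between 3776 and 6773 CPM in EpCAM libraries. Gng13, which is in this list and in the tuft list, averaged 254 CPM in FSChi, 83.5 CPM in FSClow and 57.9 CPM in EpCAM libraries. It was therefore a large part of the FSClow sums. Secretory cell markers summed to 7900, 513, 2386, 11843 and 13438 CPM in the same FSChi replicates, to between 35.9 and 336 CPM in FSClow libraries and to between 8082 and 22334 CPM in EpCAM libraries. FSChi replicate 2 was the shallowest library and the FSChi library with the least neuronal and secretory signal. For 14 of the 19 libraries the column of the count table resembled that library's own single-library file most, and for the other 5 (FSChi replicates 3, 4 and 5 and EpCAM replicates 1 and 2) it resembled another file of the same group. No column most resembled a file of another group. The highest correlation of a column with any file was 0.927 for FSChi replicate 5 and 0.961 to 0.972 for the others. The group of FSChi replicate 5 was therefore not settled by its match. Values from the single-library files are given by group only.

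Dclk1 lies on chromosome 3 of the mouse genome, at chr3:55242303-55539068 (GRCm38.p6, Entrez gene 13175). The gene is known to have an upstream promoter, for proteins with doublecortin domains, and an internal promoter, for shorter proteins that keep the kinase domain without them. GENCODE lists 15 Dclk1 transcripts, of 413 to 7962 bases, and the authors' single-library files list all 15. Of these, 3 transcripts of 6025 to 7962 bases start within 300 bases downstream of the upstream start of the RefSeq promoter table, and 7 transcripts of 1499 to 7012 bases within 300 bases downstream of its internal start. The bases from 250 to 71 before each of these starts, from the RefSeq table of GRCm38.p6, are shown because reads of both transcript groups fall into 1 Dclk1 count.
Dclk1 upstream start, chr3:55242114-55242293, plus strand: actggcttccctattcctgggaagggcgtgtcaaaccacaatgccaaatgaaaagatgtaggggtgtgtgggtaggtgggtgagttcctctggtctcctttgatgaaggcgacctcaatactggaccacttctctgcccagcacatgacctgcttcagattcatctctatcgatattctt
Dclk1 internal start, chr3:55461478-55461657, plus strand: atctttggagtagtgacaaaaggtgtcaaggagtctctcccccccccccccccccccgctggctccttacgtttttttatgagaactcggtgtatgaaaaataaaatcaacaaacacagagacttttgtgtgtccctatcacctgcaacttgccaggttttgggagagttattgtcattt
Neither window held the octamer ATGCAAAT, the letters recognised by POU-domain factors such as Pou2f3, on either strand, and 1.15% of 32851 promoter windows of the same length and position did. Neither held a CCAAT box (searched as CCAAT on both strands), which 25.0% of the windows held, so no letters are in capitals. The guanine and cytosine content was 49.4% in the upstream window and 46.1% in the internal one.

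Dclk1 was read in all 19 libraries and was highest in FSChi cells. It measured 302, 334, 662, 296 and 142 CPM in FSChi replicates 1 to 5. In the 9 FSClow libraries the lowest value was 65.4, the median 148 and the highest 191 CPM. In EpCAM replicates 1 to 5 it measured 79.3, 87.0, 112, 97.5 and 67.9 CPM. All 5 FSChi libraries lay above every EpCAM library, and 4 of 5 lay above every FSClow library. FSClow and EpCAM libraries overlapped, with 5 of 9 FSClow libraries above all EpCAM libraries and 1 below them all. Dclk1 transcripts were thus present in eGFP-negative epithelium at 366 to 626 reads per library, in the libraries where Chat had 1 to 17 reads.

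The model across all 13340 genes that passed a filter on low counts (edgeR's quasi-likelihood test with Benjamini-Hochberg adjustment) placed Dclk1 higher in FSChi than in EpCAM cells and higher in FSChi than in FSClow cells. Mean levels were 347 ± 191 CPM in FSChi, 136 ± 43.0 CPM in FSClow and 88.8 ± 16.9 CPM in EpCAM libraries (SD, n = 5, 9 and 5). The log2 fold change was 1.97 ± 0.32 (SE) in FSChi over EpCAM cells, with an edgeR adjusted p of 6.6e-05. It was 1.35 ± 0.27 in FSChi over FSClow cells, with an edgeR adjusted p of 0.00053. In FSClow over EpCAM cells it was 0.62 ± 0.28, with a 95% interval from 0.07 to 1.17 and an edgeR adjusted p of 0.0775, which did not pass the threshold of 0.05. Without FSClow replicate 1, the lowest FSClow library for Dclk1, this last contrast was 0.71 with an edgeR adjusted p of 0.0324, the only call among 31 alternatives, where the others gave adjusted p-values of 0.0562 to 0.367. Of all genes tested, 25.6% were called in FSChi against EpCAM cells, 24.8% in FSChi against FSClow cells and 45.1% in FSClow against EpCAM cells. FSChi replicate 3, the highest library, set part of the size: without it the log2 fold change was 1.55 over EpCAM and 1.02 over FSClow cells, with edgeR adjusted p-values of 0.00039 and 0.0038. With only the libraries that matched their own file, the values were 1.73 and 1.26, with edgeR adjusted p-values of 0.0052 and 0.0097. In bulk samples, a difference in the share of cells that carry a transcript and a difference in the amount per cell cannot be told apart.

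**Figure D1:**
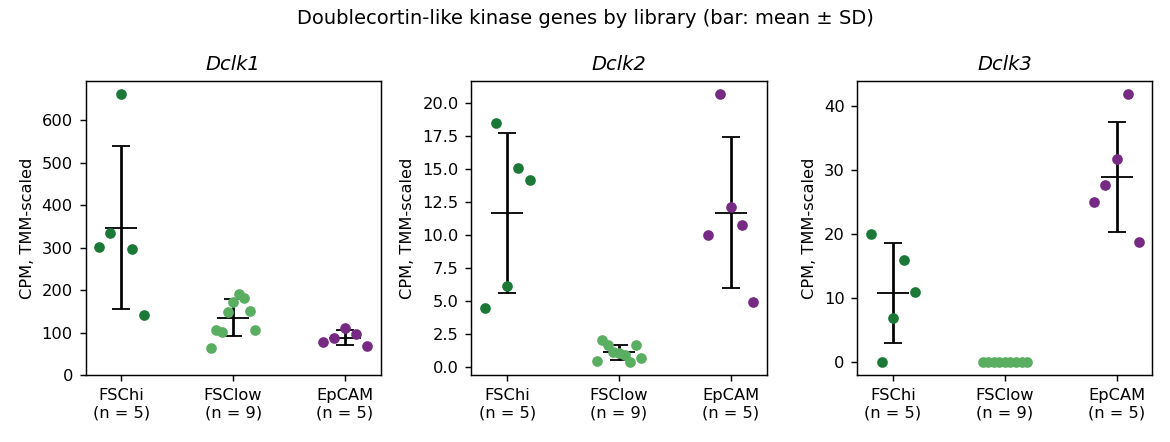
Level of each doublecortin-like kinase gene (vertical axes, CPM with TMM scaling, linear) in every FSChi, FSClow and EpCAM library (points), with the mean and SD as bars. Dclk1 ran from 142 to 662 CPM in FSChi libraries and overlapped between FSClow and EpCAM libraries, Dclk2 was lowest in FSClow libraries, and Dclk3 was 0 in all 9 FSClow libraries.

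The contrasts of Trpm5 and Pou2f3 had another shape. Trpm5, the calcium-activated cation channel of taste and tuft cell signalling, measured 623, 1464, 1539, 777 and 1226 CPM in FSChi replicates 1 to 5. It ran from 967 to 2398 CPM with a median of 1686 CPM in FSClow libraries, and it measured 2.16, 0, 0.187, 0.156 and 4.37 CPM in EpCAM replicates 1 to 5. Every eGFP-positive library was far above every EpCAM library, while FSChi and FSClow libraries overlapped. The log2 fold change of Trpm5 was 9.58 ± 0.75 in FSChi over EpCAM cells (edgeR adjusted p = 2.1e-09) and 10.14 ± 0.75 in FSClow over EpCAM cells (edgeR adjusted p = 4.0e-10). Between FSChi and FSClow cells it was -0.56, with an edgeR adjusted p of 0.404.

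Pou2f3, the transcription factor on which tuft cells depend, measured 88.2, 240.2, 170.1, 107.7 and 144 CPM in FSChi replicates 1 to 5. It ran from 128 to 227 CPM with a median of 205 CPM in FSClow libraries, and it measured 2.36, 3.56, 1.68, 1.40 and 5.57 CPM in EpCAM replicates 1 to 5. Here too the eGFP-positive groups overlapped each other and stood clear of EpCAM libraries. The log2 fold change of Pou2f3 was 5.66 in FSChi over EpCAM cells, 6.01 in FSClow over EpCAM cells and -0.35 in FSChi over FSClow cells, the last with an edgeR adjusted p of 0.335.

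Among 24 tuft markers, 23 had a larger log2 fold change than Dclk1 in FSChi over EpCAM cells and 23 in FSClow over EpCAM cells. The list holds Trpm5, Pou2f3 and Chat, the gene of the sort, and was chosen with earlier results of these data known. The rank is therefore a description. The marker below Dclk1 was Cd24a (1.95), a surface glycoprotein gene, for FSChi cells and Gng13 (0.53), a G protein gamma subunit gene shared with olfactory neurons, for FSClow cells. The median of the 24 markers was 8.49 in each of these contrasts. In FSChi over FSClow cells the order was the other way round, and 22 of the 24 markers had a smaller log2 fold change than Dclk1, with a median of -0.40. The 2 markers above Dclk1 there were Gnat3 (3.61) and Gng13 (1.61). Over all genes tested, the median log2 fold change was -0.02 in FSChi over EpCAM cells, 0.05 in FSClow over EpCAM cells and -0.01 in FSChi over FSClow cells.

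**Figure D2:**
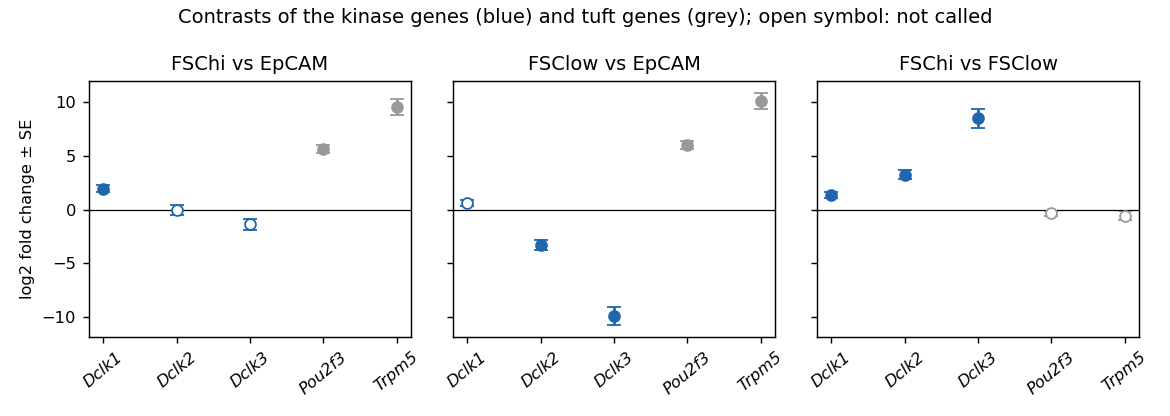
Log2 fold change with its SE (vertical axis) of the 3 kinase genes, in blue, and of Pou2f3 and Trpm5, in grey, in each of the 3 comparisons (panels), where an open symbol is a gene not called at an adjusted p under 0.05. Dclk1 was at 1.97 and 0.62 in the first and second panels, where Trpm5 was at 9.58 and 10.14, and the fitted values of Dclk3 against FSClow cells depend on a prior count since that group is at 0.

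The contrast of Dclk1 was set against those of Trpm5 and Pou2f3 within libraries. The measure was the difference between Dclk1 and the other gene in log2(CPM + 0.5). Trpm5 and Pou2f3 were taken for scale, with their contrasts known from earlier results and their levels low in EpCAM libraries. The outcome against EpCAM cells was therefore set in advance, and those p-values, for both genes, are a description. The difference of Dclk1 minus Trpm5 averaged -1.78 ± 0.85 in FSChi, -3.61 ± 0.26 in FSClow and 6.15 ± 1.68 in EpCAM libraries. Dclk1 was therefore read less than Trpm5 in eGFP-positive libraries and more than Trpm5 in eGFP-negative ones, on a scale that is not corrected for gene length. Between FSChi and EpCAM libraries, this difference changed by -7.93 log2 units (two-sided exact permutation p = 0.00794, adjusted over 6 tests 0.00794). Between FSClow and EpCAM libraries it changed by -9.76 units (two-sided exact permutation p = 0.000999, adjusted 0.0015). Between FSChi and FSClow libraries it changed by 1.84 units (two-sided exact permutation p = 0.000999, adjusted 0.0015). These are the smallest p-values that the numbers of libraries allow. In EpCAM replicates 1 to 5 Trpm5 had 11, 0, 1, 1 and 29 reads. The sizes of -7.93 and -9.76 therefore depend in part on the 0.5 CPM added before the logarithm.

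Against Pou2f3, Dclk1 was read less in FSClow libraries and more in FSChi and EpCAM libraries on average. Dclk1 minus Pou2f3 averaged 1.13 ± 0.86 in FSChi, -0.54 ± 0.41 in FSClow and 4.82 ± 0.92 in EpCAM libraries. The contrast of Dclk1 minus that of Pou2f3 was -3.69 log2 units in FSChi against EpCAM cells (adjusted p = 0.00794, exact permutation). It was -5.36 units in FSClow against EpCAM cells (adjusted p = 0.0015, exact permutation). It was 1.66 units in FSChi against FSClow cells (adjusted p = 0.0015, exact permutation). Every FSChi library had a higher ratio of Dclk1 to each of these genes than every FSClow library. With only the libraries that match their own file, 2 of them FSChi libraries, the differences for Trpm5 and Pou2f3 were -7.72 and -3.83 in FSChi against EpCAM cells and 2.03 and 1.66 in FSChi against FSClow cells, with exact permutation adjusted p-values of 0.20 and 0.0545, the smallest that these numbers of libraries allow.

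**Figure D3:**
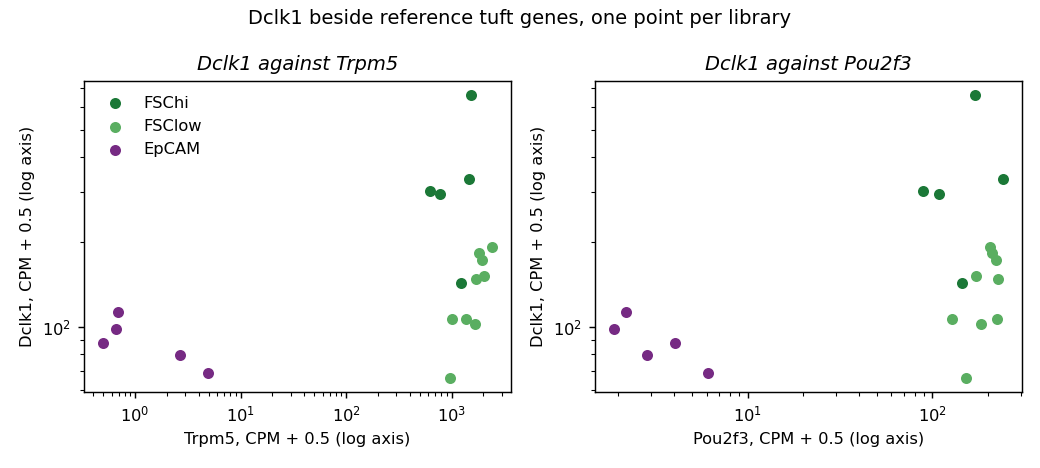
Level of Dclk1 (vertical axes, CPM + 0.5, log scale) against that of Trpm5 or Pou2f3 (horizontal axes, CPM + 0.5, log scale), with 1 point per library in FSChi, FSClow and EpCAM cells. EpCAM libraries sit at the left, with 67.9 to 112 CPM of Dclk1 beside at most 4.37 CPM of Trpm5, and at the right most FSChi points lie above the FSClow points.

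Per unit of transcript length, the single-library files gave the same order of groups. The median level of Dclk1 was 151 TPM (transcript abundance relative to length and library total) in 4 FSChi files, 80.0 TPM in 9 FSClow files and 50.6 TPM in 5 EpCAM files. The file of FSChi replicate 3 holds 6807 expected counts in all and was left out. The count column of that replicate, the highest for Dclk1 at 662 CPM, most resembled the file of FSChi replicate 4 (correlation 0.970). The column of FSChi replicate 5, the lowest of the group at 142 CPM, reached 0.927 at most. The 4 files may therefore lack the lowest FSChi library for Dclk1 rather than the highest. On the TPM scale, which allows genes to be compared, Trpm5 had medians of 385, 707 and 0.68 TPM, and Pou2f3 of 70.4, 111 and 1.42 TPM, in FSChi, FSClow and EpCAM files. Dclk1 was therefore the most abundant of these genes in EpCAM files and the least abundant of them in FSClow files by median TPM, and lay between them in FSChi files. The mean length that RSEM assigned to the Dclk1 transcripts was 2814 ± 204 bases in FSChi, 2738 ± 389 bases in FSClow and 2797 ± 412 bases in EpCAM files (SD, n = 4, 9 and 5). None of the 3 comparisons of length passed the threshold, each with an exact permutation p of 0.968 after adjustment over 3 tests. The largest of these differences was 75.4 bases, and it lay within the spread between files of a group. The files give 1 length per gene, so the shares of long and short transcripts were not measured.

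Among the 9 FSClow libraries, where the sort is the same, libraries with more Trpm5 also had more Dclk1. Pearson's r in log2(CPM + 0.5) was 0.864 (exact permutation p = 0.00142, adjusted over 2 relations 0.00284) and Spearman's rho was 0.883 (exact permutation p = 0.0031, adjusted 0.0062). Without FSClow replicates 1 and 2, the 2 libraries farthest from the median of Trpm5, r was 0.785 over 7 libraries (exact permutation p = 0.0323). For Pou2f3, r was 0.584 (exact permutation p = 0.0994) and rho was 0.417 (exact permutation p = 0.27), and r was 0.173 without the same 2 libraries. FSClow replicates 1 and 2 were also the lowest of the group for Chat, at 448 CPM each, where the other 7 had 557 to 587 CPM. These relations were chosen after the levels had been seen, and the values of a library share its scaling factor.

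Over all 19 libraries, the genes whose log2 CPM pattern was most like that of Dclk1 were Vps13d (r = 0.856), Srpx2 (0.847), Strip2 (0.799), Ankrd33b (0.793) and Cfp (0.793). Trpm5 reached 0.493 and Pou2f3 0.486. These are descriptions over libraries that share group and scaling. Srpx2, which codes for a secreted sushi-repeat protein, averaged 50.9 CPM in FSChi, 4.07 CPM in FSClow and 0.0676 CPM in EpCAM libraries. Vps13d, which codes for a lipid transfer protein of mitochondria and other organelles, averaged 120.4 CPM in FSChi, 75.0 CPM in FSClow and 34.5 CPM in EpCAM libraries. Cfp, the complement properdin gene, averaged 27.9 CPM in FSChi, 2.37 CPM in FSClow and 2.78 CPM in EpCAM libraries, and so was like Dclk1 in its FSChi level but not in the order of the other groups.

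Dclk2 lies on the same chromosome as Dclk1, at chr3:86786150-86920952 (GRCm38.p6, Entrez gene 70762), and GENCODE lists 9 transcripts for it. The bases from 250 to 71 before its start in the same RefSeq table, which lie outside the gene's locus, are shown for comparison with those of Dclk1, because Dclk2 did not share the Dclk1 pattern.
Dclk2 start, chr3:86920955-86921134, minus strand: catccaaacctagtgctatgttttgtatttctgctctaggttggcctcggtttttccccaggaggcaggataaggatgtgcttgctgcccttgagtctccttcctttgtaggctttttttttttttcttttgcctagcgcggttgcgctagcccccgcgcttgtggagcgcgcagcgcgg
The window held neither CCAAT nor ATGCAAAT on either strand, and its guanine and cytosine content was 52.8%.

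Dclk2 was low in FSClow cells and averaged 11.7 CPM in each of the other groups. It measured 4.47, 18.5, 6.18, 15.1 and 14.2 CPM in FSChi replicates 1 to 5. In FSClow libraries the lowest value was 0.403, the median 1.08 and the highest 2.05 CPM, from 34 reads over all 9. In EpCAM replicates 1 to 5 it measured 10.01, 20.7, 12.2, 10.8 and 4.97 CPM. Every FSClow library lay below every library of the other groups, and FSChi and EpCAM libraries overlapped over most of their range. Means were 11.7 ± 6.05 CPM in FSChi, 1.13 ± 0.575 CPM in FSClow and 11.7 ± 5.70 CPM in EpCAM libraries (SD, n = 5, 9 and 5). The log2 fold change was -3.29 ± 0.42 in FSClow over EpCAM cells (edgeR adjusted p = 6.9e-07) and 3.26 ± 0.43 in FSChi over FSClow cells (edgeR adjusted p = 5.2e-06). In FSChi over EpCAM cells it was -0.03 ± 0.44, with a 95% interval from -0.90 to 0.84 and an edgeR adjusted p of 0.973, so the data allow a change of nearly 1 log2 unit either way. Its sign turned when single libraries were left out.

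Dclk3 lies on chromosome 9, at chr9:111439081-111489611 (GRCm38.p6, Entrez gene 245038), with 1 listed transcript of 3005 bases. It measured 19.99, 0, 6.85, 15.9 and 10.99 CPM in FSChi replicates 1 to 5. No read was counted in any of the 9 FSClow libraries. In EpCAM replicates 1 to 5 it measured 24.9, 27.6, 31.6, 41.8 and 18.7 CPM. Dclk3 was thus present in all EpCAM libraries, in 4 of 5 FSChi libraries, and in no FSClow library, and 4 of 5 FSChi libraries lay below every EpCAM library. Means were 10.7 ± 7.78 CPM in FSChi and 28.9 ± 8.58 CPM in EpCAM libraries (SD, n = 5 each).

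A count of 0 over the FSClow libraries allows up to 3 reads, or 0.107 CPM, for counting error only. Against that limit Dclk3 was at least 270.6-fold lower in FSClow than in EpCAM cells and at least 100.5-fold lower in FSClow than in FSChi cells, by mean CPM. Both differences were called (edgeR adjusted p = 9.0e-08 and 5.1e-06). In FSChi over EpCAM cells the log2 fold change was -1.37 ± 0.55, with a 95% interval from -2.45 to -0.30 and an edgeR adjusted p of 0.0773, which did not pass the threshold. The call depended on the method: the value was -1.50 with DESeq2 (adjusted p = 0.0306), and -1.75 in edgeR without FSChi replicate 1 (adjusted p = 0.0440). Dclk2 and Dclk3 passed the filter on low counts through the FSChi and EpCAM libraries, so their low level in FSClow cells is given as a description beside the 23.1% of genes called lower in FSClow than in EpCAM cells and the 15.5% called higher in FSChi than in FSClow cells.

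Olfactory neuron markers moved with Dclk3 across the groups, and so did markers of other epithelial cells. The summed level of 18 immature neuron markers was 729, 160, 634, 1445 and 228 CPM in FSChi replicates 1 to 5. It was 141 to 190 CPM in FSClow libraries and 2806 to 3443 CPM in EpCAM libraries. In FSClow libraries most of this sum came from Dpysl3 (mean 91.9 CPM) and Ncam1 (38.8 CPM), both called lower there than in EpCAM cells. FSChi replicate 2, with no Dclk3 read, was the FSChi library lowest in the 18 immature markers and within the FSClow range. That library had the highest Dclk2 level of the FSChi group, 18.5 CPM, and 334 CPM of Dclk1. FSChi replicate 5, with 228 CPM of the immature markers, had 10.99 CPM of Dclk3. The mature neuron sums ranked the FSChi replicates in the order of Dclk3, and the immature, basal and secretory sums did not. Of the 18 immature markers, 16 were called lower in FSChi than in EpCAM cells, 18 lower in FSClow than in EpCAM cells and 17 higher in FSChi than in FSClow cells, where 12.2%, 23.1% and 15.5% of all genes were called in those directions. Of the 15 mature neuron markers, 8 were called lower and 1 higher in FSChi than in EpCAM cells, 14 lower in FSClow than in EpCAM cells and 15 higher in FSChi than in FSClow cells. No marker of either list was at 0 in all libraries of a group. Omp, the olfactory marker protein gene, averaged 1005 CPM in FSChi, 13.3 CPM in FSClow and 2172 CPM in EpCAM libraries. FSChi replicate 2 was also the lowest FSChi library for basal markers, at 360 CPM, sustentacular markers, at 319 CPM, secretory markers, at 513 CPM, and stromal and endothelial markers, at 6.43 CPM. The FSClow libraries ran from 248 to 420 CPM for basal markers, from 256 to 646 CPM for sustentacular markers and from 6.65 to 32.2 CPM for stromal and endothelial markers. The median sums of these 4 lists were highest in EpCAM and lowest in FSClow libraries, in the order of Dclk3. Single genes carry some of these sums. In FSClow libraries most of the basal sum came from Kit (mean 143 CPM) and Dst (126 CPM). Kit was called higher in FSClow than in EpCAM cells (log2 fold change 2.41), and Dst was not called. In EpCAM libraries Dcn (133 CPM) made most of the stromal and endothelial sum. The part of RNA from neurons or other cells in the Dclk2 and Dclk3 levels was not tested.

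Dcx followed the same order of groups as Dclk3. It measured 12.0, 0, 7.93, 18.7 and 4.61 CPM in FSChi replicates 1 to 5 and 39.6 to 112 CPM in EpCAM libraries, and it was 0 in 7 of the 9 FSClow libraries, with 6 reads over all 9. Its log2 fold change in FSChi over EpCAM cells was -3.17 ± 0.52 (edgeR adjusted p = 7.2e-05). Over the 19 libraries the r of log2 CPM between Dclk3 and Dcx was 0.968, as a description. With Dclk3 at 0 in all 9 FSClow libraries, this r largely reflects the difference between groups. The genes most like Dclk3 by this measure were Iqub (0.994), Ccdc151 (0.994), which codes for an axonemal dynein docking factor, and Scn9a (0.994), which codes for a voltage-gated sodium channel of sensory neurons. Those most like Dclk2 were Galnt6 (0.935), which codes for an enzyme of mucin-type glycosylation, Col16a1 (0.934), a collagen gene, and Stox1 (0.930). Between Dclk2 and Dclk3 the r was 0.774, and between Dclk1 and Dclk2 or Dclk3 it was 0.151 and -0.06.

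**Figure D4:**
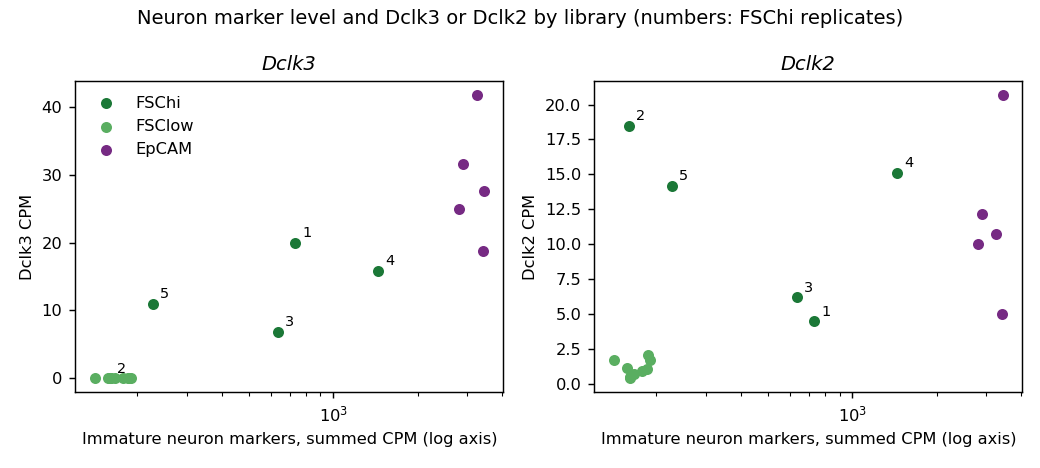
Level of Dclk3 (left) and Dclk2 (right) in CPM against the summed CPM of 18 immature olfactory neuron markers (horizontal axes, log scale), with 1 point per library and the FSChi replicates numbered. For Dclk3, FSChi replicate 2 lies at 0 among the FSClow points, and for Dclk2 the same replicate lies highest of the FSChi points at 18.5 CPM. FSChi replicate 5 has 228 CPM of the markers and 10.99 CPM of Dclk3.

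The makeup of the family differed between the groups. By TPM, Dclk1 took a median of 94.6% of the summed level of the 3 genes in FSChi files, 99.5% in FSClow files and 70.7% in EpCAM files. Dclk3 took 2.49% in FSChi, 0% in FSClow and 21.6% in EpCAM files, and Dclk2 took 2.25%, 0.466% and 7.59% in the same order. Dclk1 was the leading member in every file, with at least 67.9% of the sum.

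Of 7 further genes with doublecortin domains, Dcx, Dcdc2a and Dcdc2b passed the filter. Dcx and Dcdc2a, a gene known from primary cilia, were called lower in FSClow than in EpCAM cells, with log2 fold changes of -8.45 and -6.15, and higher in FSChi than in FSClow cells, with 5.28 and 5.31. Of all genes tested, 23.1% and 15.5% were called in those directions. Dcx had 6 reads over all FSClow libraries. Both genes passed the filter through the other groups, so their low level in FSClow cells is a description. Dcdc2a averaged 40.7 CPM in FSChi, 1.29 CPM in FSClow and 74.4 CPM in EpCAM libraries. Dcdc2b was not called in any comparison and averaged 4.99, 5.69 and 5.16 CPM in FSChi, FSClow and EpCAM libraries. With 3 members tested, each median log2 fold change is the value of 1 gene and describes no shift of the list. It was -0.84 (Dcdc2a) in FSChi over EpCAM cells, -6.15 (Dcdc2a) in FSClow over EpCAM cells and 5.28 (Dcx) in FSChi over FSClow cells.

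The kinase domain places the family beside the calcium/calmodulin-dependent kinases, of which 24 of 28 listed genes passed the filter. In FSChi over EpCAM cells, 4 were called higher and 6 lower, with a median log2 fold change of -0.17. In FSClow over EpCAM cells, 8 were called higher and 8 lower, with a median of 0.22, and in FSChi over FSClow cells 4 were called higher and 3 lower, with a median of 0.17. Of all genes tested, 13.5% were called higher and 12.2% lower in FSChi than in EpCAM cells, 22.0% higher and 23.1% lower in FSClow than in EpCAM cells, and 15.5% higher and 9.3% lower in FSChi than in FSClow cells. The list as a whole therefore moved in no common direction.

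Single kinases of the list did move with the eGFP sort. Camk2b, the beta subunit of calcium/calmodulin-dependent kinase II, averaged 51.7 CPM in FSChi, 32.2 CPM in FSClow and 3.14 CPM in EpCAM libraries. It had log2 fold changes of 4.04 ± 0.39 in FSChi and 3.36 ± 0.36 in FSClow over EpCAM cells (edgeR adjusted p = 2.8e-08 and 5.2e-08). Camkk2, an upstream activating kinase, was called higher in both eGFP-positive groups than in EpCAM cells, with log2 fold changes of 0.87 in FSChi and 1.56 in FSClow cells, and so was Stk17b, with 0.95 and 2.16. Of the 5 called lower in both, Camk2a and Camk2g, further subunit genes of kinase II, had log2 fold changes of -2.001 and -0.88 in FSChi cells and -3.91 and -1.47 in FSClow cells. Camk1g had -2.78 and -3.51, Cask, a scaffold kinase gene, -1.54 and -2.09, and Dapk1, a death-associated protein kinase gene, -1.95 and -4.16, each in FSChi and then in FSClow cells. Prkd3, a protein kinase D gene, was called higher in FSClow than in EpCAM cells (1.28) and lower in FSChi than in FSClow cells (-1.70), the opposite order of the eGFP-positive groups from Dclk1. Dapk2 and Camk1d had the Dclk2 pattern of calls, lower in FSClow than in EpCAM cells (-3.94 and -3.21) and higher in FSChi than in FSClow cells (3.47 and 3.47), with no call between FSChi and EpCAM cells.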

How the data were processed

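RNA sequencing libraries of sorted mouse nasal epithelial cells were analysed from the deposited tables. The authors deposited raw counts per gene and library and a normalized signal, that is, counts over a library's size factor, of which 100% came out whole within 0.01 when multiplied back. The single-library files hold, per the file headers, RSEM expected counts, TPM and lengths. The tools RSEM 1.2.21, STAR 2.4.2a, featureCounts, DESeq2 and Picard 1.1073 are named with mm10, per the submitters' processing notes, without roles. The annotation and the use of strand are not given in the sources used here, so overlapping genes may share reads.

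Identifiers were named from a RefSeq table (25275) or from rows with equal counts in the normalized table (403), and 1501 stayed unnamed. Counts were filtered with filterByExpr by group, scaled by TMM and fitted with a robust quasi-likelihood model of group over all 19 libraries in edgeR 4.0.16 (R 4.3.3). SEs came from the F statistic. CPM are counts relative to the TMM-scaled library total. RSEM's expected counts were rounded to whole numbers for edgeR. Alternatives used DESeq2 1.42.0 and limma 3.58.1. Permutation tests used scipy 1.17.1 or full enumeration, and the scripts were tested on simulated data. Named genes were the members, Trpm5, Pou2f3, Chat, the genes most like each member by r (5 for Dclk1 and 3 each for Dclk2 and Dclk3), tested genes of both kinase and doublecortin lists, and the leading cell type markers. Beside them, Cd24a, Gng13, Gnat3, Dpysl3, Kit and Dst were named after their values were seen. The members and lists were chosen with earlier results of these data known.

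Cell type lists for basal, sustentacular, ciliated, ionocyte, leukocyte, stromal and endothelial cells and olfactory ensheathing glia were also summed, and their median levels in FSChi, FSClow and EpCAM libraries were as follows. Counts of members called are given where 1 gene carries a sum. Basal markers were at 1003, 311 and 3383 CPM, sustentacular markers at 934, 300 and 2783 CPM, ciliated markers at 1313, 1493 and 1168 CPM, and ionocyte markers at 1011, 969 and 2091 CPM. Tubb4b, which averaged 1650 CPM in FSClow libraries, carries the ciliated sum, and 10 of 12 ciliated markers were called lower and 1 higher in FSClow than in EpCAM cells (median log2 fold change -3.62). Hepacam2, which averaged 932 CPM in FSClow libraries, carries the ionocyte sum, and 7 of 8 tested ionocyte markers were called lower and 1 higher there (median -5.99). Leukocyte markers were at 26.3, 17.2 and 1019 CPM, stromal and endothelial markers at 136, 10.4 and 146 CPM, and glial markers at 61.8, 18.3 and 54.0 CPM. In EpCAM libraries Lyz2 (mean 1718 CPM), Dcn (133 CPM) and Cdh2 (39.4 CPM) carry these 3 sums, and Ptprc was at 0. Of 3 tested leukocyte markers, 1 was called lower and 1 higher in FSClow than in EpCAM cells. Of 2 tested stromal and endothelial markers 1 was called lower, and likewise 1 of 2 glial markers. Of all genes tested, 23.1% were called lower and 22.0% higher there.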

Additional observations from a re-analysis of the deposited data

How the results depend on the processing

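No call of Dclk2 or Dclk3 against FSClow cells, and no call of Dclk1 in FSChi cells, was lost under any alternative run, though Dclk3 had no value in FSChi against FSClow cells fitted on these groups alone. With 34 Dclk2 reads and no Dclk3 read over the FSClow libraries, these runs could hardly change the calls of those genes, which stay a description. The uncalled contrasts were less firm. Dclk1 in FSClow over EpCAM cells ran from 0.45 to 0.71 when 1 library was left out, and was 0.33 with limma on the authors' normalized values and 0.42 with RLE scaling, which moved the median of all genes in that contrast from 0.05 to -0.14 (in FSChi over EpCAM cells from -0.02 to -0.14) and the share of higher calls from 48.7% to 38.2%. Dclk2 in FSChi over EpCAM cells ran from -0.23 to 0.27 when 1 library was left out and was 0.19 with only the libraries matching their own file. Dclk3 in FSChi over EpCAM cells was called with DESeq2 (-1.50), with limma on log2(TPM + 1) (-1.82) and with limma on the authors' normalized values (-2.37), and ran from -1.75 to -1.10 when 1 library was left out. With only matching libraries, Dclk1 minus Trpm5 and Dclk1 minus Pou2f3 were -7.72 and -3.83 in FSChi against EpCAM cells (exact permutation, adjusted p = 0.20) and 2.03 and 1.66 in FSChi against FSClow cells (exact permutation, adjusted p = 0.0545), the smallest p-values that its 2 FSChi libraries allow. When 1 file was left out, the difference in Dclk1 transcript length ran from -110.9 to 143 bases in FSChi against EpCAM cells, from -186 to 68.0 bases in FSClow against EpCAM cells and from -22.1 to 141 bases in FSChi against FSClow cells.

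The number of genes called in FSChi against EpCAM cells, 3421, was 1838 with only matching libraries. In FSChi against FSClow cells, 3310 became 1940 and 1980 with limma on log2(TPM + 0.1) and log2(TPM + 1), 2106 with only these groups in the fit, 1982 with the replicate number as a block and 1754 with only matching libraries. The cause of these changes was not tested, and the last setting also has fewer libraries. The correlation of deviations between same-numbered libraries ran from -0.192 to 0.404 and was not over 0.1 in every pair, and the labels give no pairing, so the numbers were not treated as pairs. With the replicate block, Dclk1 was at 1.90 in FSChi over EpCAM, 0.45 in FSClow over EpCAM and 1.46 in FSChi over FSClow cells, and Dclk3 in FSChi over EpCAM cells at -1.63, and no call of a kinase gene changed. Depth limits Dclk2 in FSClow cells, with 1 to 10 reads per library, and Dclk3 there, with none.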
